A study of Homo sapiens with 11 samples.

Results

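The cyclin-dependent kinase (CDK) inhibitors and the p53 axis were described here as 9 listed genes, CDKN1A, CDKN1B, CDKN1C, CDKN2A, CDKN2B, CDKN2C, CDKN2D, MDM2 and GADD45A. They were taken by symbol, from a list made with earlier results of these data known. All 9 were among the 28252 genes of the RT4 RNA-Seq tables, and 8 were among the 26237 promoters of the BEAS-2B H3K4me3 tables, where CDKN1C was not analysed. Of the 9 genes in RT4 cells, 6 had enough reads to be tested.

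RT4 is a cell line from a non-invasive human bladder cancer. BEAS-2B is a human bronchial epithelial line immortalised with an adenovirus 12-SV40 hybrid virus, whose large T antigen binds p53 and RB. Each line was compared untreated (UT), after exposure to 100 μM NiCl2 for 6 weeks (Ni-E), and after exposure followed by culture in nickel-free medium (Ni-W). RT4 Ni-W cells had 2 weeks without nickel, and each RT4 group had 2 libraries. The BEAS-2B Ni-W cells were a population grown from 1 colony for more than 6 months without nickel, so that clone, time and nickel cannot be told apart there, and each BEAS-2B condition had 1 H3K4me3 library. In RT4 cells all 11 urothelial markers looked up were detected, with a summed level of 5783 to 7805 TPM (the RNA level per transcript length and depth), against at most 5.13 TPM for the fibroblast list, 0.73 for the leukocyte list and 1.9 for the endothelial list. The urothelial sum was 5783 to 6135 in UT, 6482 to 6526 in Ni-E and 6757 to 7805 in Ni-W, and was mostly KRT7 (mean TPM 4581, 5523 and 5941). The other urothelial markers went both ways in Ni-E. KRT5 had a mean of 1.935 TPM in UT and 4.425 in Ni-E, TP63 104 and 115, and PPARG 206 and 216. GATA3 (217 and 195) and CDH1 (234 and 212) were slightly lower. KRT20 had a mean of 11.2 TPM in UT, 0.18 in Ni-E and 1.48 in Ni-W and was called lower in both (edgeR adjusted p = 0.0085 and 0.0294), and UPK1A, at 81.55, 17.3 and 42.0 TPM, was called lower in Ni-E (adjusted p = 0.0376). UPK2 (343, 112 and 275 TPM), UPK1B (96.1, 54.9 and 100.03) and UPK3A (83.4, 54.5 and 114.7) were called lower in Ni-E with the replicate term described below. The part of these markers in the results below was not tested. In such bulk samples, fewer cells with a transcript and less transcript per cell cannot be told apart.

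CDK inhibitors restrain the kinases that drive the cell cycle. The CIP/KIP proteins p21 (CDKN1A), p27 (CDKN1B) and p57 (CDKN1C) bind cyclin-CDK complexes broadly, whereas the INK4 proteins p16 (CDKN2A), p15 (CDKN2B), p18 (CDKN2C) and p19 (CDKN2D) bind CDK4 and CDK6, which phosphorylate RB. p53 is a stress-activated transcription factor that turns on CDKN1A, the growth arrest gene GADD45A and its own inhibitor MDM2, a ubiquitin ligase that marks p53 for degradation. CDKN2A also encodes ARF from a separate first exon, and ARF inhibits MDM2.

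CDKN1A, MDM2 and GADD45A are textbook p53 targets, so matches to the p53 response element near the start sites of CDKN1A and MDM2 are shown first. GADD45A had no entry in the promoter table used. The element was searched as 2 adjoining decamers with no spacer and at most 2 mismatches in 20 bases, which is palindromic and so covers both strands, within 3000 bases of each start site in the RefSeq promoter table (GRCh38.p14). At least 1 match was present around 15.13% of the 35116 start sites of all genes, so a match within this distance is common. The capitals mark the 4 core bases of each decamer.
CDKN1A distal: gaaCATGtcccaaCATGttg
CDKN1A proximal: gaaGAAGactgggCATGtct
MDM2 first: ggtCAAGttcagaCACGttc
MDM2 second: ggaCTTGcctagtCTTAtct
The distal CDKN1A match lay at chr6:36676449-36676468, 2265 bases before the listed CDKN1A start site, and the proximal match at chr6:36677331-36677350, 1383 bases before it. The first MDM2 match lay at chr12:68808923-68808942, between the upstream and the downstream start sites of the gene, 746 and 751 bases after the former and 94 and 101 bases before the latter. The second lay at chr12:68811195-68811214, 2171 and 2178 bases after the downstream start sites. First and second give the order by position alone, and sites with more than 2 mismatches were neither listed nor marked. A match to letters is not evidence of binding, and binding was not measured.

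The 250 bases before 1 of the downstream MDM2 start sites are shown because they hold such a match, which was true of 0.6493% of the 300-base promoters of all genes (250 bases before to 50 after a start). The capitals mark the match (chr12:68808767-68809016, plus strand, GRCh38.p14). The CDKN1A sequence (chr6:36678464-36678713, plus strand) has in capitals the letters GGGCGG, the GC box, which were searched on both strands and counted 4 times, 2 of them overlapping, and which occurred in 44.95% of all promoters.
MDM2: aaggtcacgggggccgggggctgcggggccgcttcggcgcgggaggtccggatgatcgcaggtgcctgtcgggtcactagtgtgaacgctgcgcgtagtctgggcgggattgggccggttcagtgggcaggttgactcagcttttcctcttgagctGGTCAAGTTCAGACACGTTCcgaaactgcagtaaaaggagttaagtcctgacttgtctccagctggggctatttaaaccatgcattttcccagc
CDKN1A: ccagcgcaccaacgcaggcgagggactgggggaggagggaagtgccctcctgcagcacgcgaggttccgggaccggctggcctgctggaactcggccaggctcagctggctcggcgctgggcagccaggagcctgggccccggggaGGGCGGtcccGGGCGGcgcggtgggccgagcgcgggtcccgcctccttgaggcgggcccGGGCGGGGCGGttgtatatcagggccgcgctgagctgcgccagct

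In untreated and nickel-treated RT4 cells, CDKN1A was the most abundant of these transcripts by TPM, and the 2 INK4 genes at 9p21, CDKN2A and CDKN2B, had no reads. Over the 6 libraries the mean TPM was 370 for CDKN1A (range 221 to 484), 186 for GADD45A (142 to 233), 45.1 for CDKN1B (31.7 to 65.6), 41.6 for MDM2 (26.6 to 60.0), 29.1 for CDKN2C (19.9 to 39.3), 6.83 for CDKN2D (5.11 to 10.4) and 0.345 for CDKN1C (0.21 to 0.54). The ranges of CDKN1A and GADD45A overlapped across libraries, as did those of CDKN1B, MDM2 and CDKN2C. Within each library CDKN1A still lay above GADD45A and CDKN1B above CDKN2C, while the place of MDM2 beside CDKN1B and CDKN2C varied. GADD45A lay above CDKN1B, CDKN2C above CDKN2D, and CDKN2D above CDKN1C in every library, with no overlap of their ranges. The plot of TPM by library shows the 7 genes with reads.

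**Figure D1:**
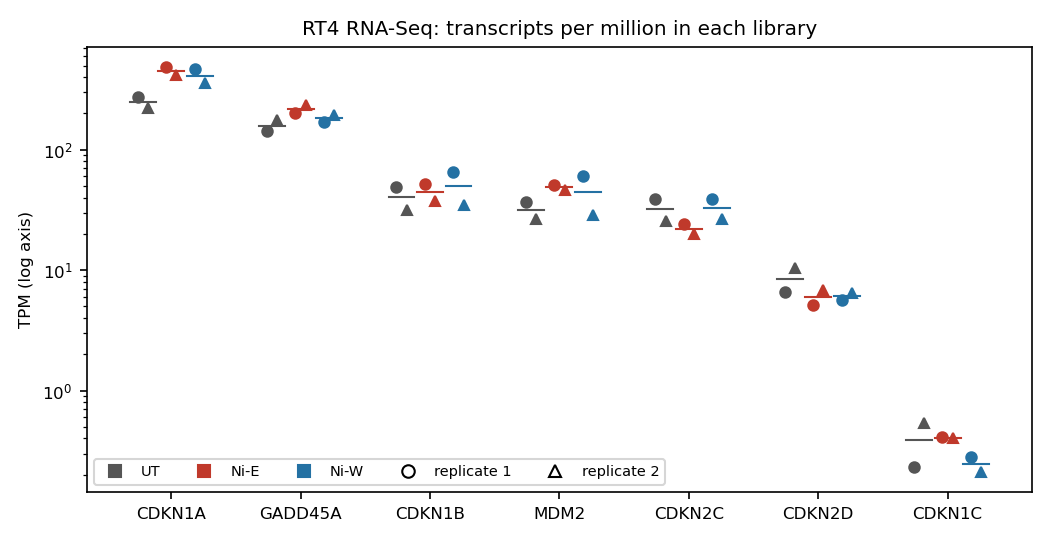
Level of each CDK inhibitor and p53-axis gene with reads, as TPM (per transcript length and depth, log axis) in the 6 RT4 libraries (circles replicate 1, triangles replicate 2, lines the mean of 2). CDKN1A in the UT libraries lay at 221 and 273 TPM and in the nickel groups between 359 and 484. CDKN2A and CDKN2B had 0 reads and are not drawn.

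During nickel exposure CDKN1A was higher and remained so after washout, MDM2 was higher during exposure, and none of the 6 tested genes passed the test without a term for the replicate number. A gene was called when it differed at least 1.5-fold with an adjusted p below 0.05 (edgeR quasi-likelihood test, Benjamini-Hochberg over 14502 genes). In Ni-E against UT, 0 of the 6 tested genes were called, where 2.17% of all genes were. Of the 6, 2 (CDKN1A and MDM2) had an unadjusted edgeR p below 0.05, as did 12.23% of all genes. With the replicate number as a term, 2 of 6 were called, CDKN1A and MDM2, where 12.6% of all genes were. DESeq2 called 1 of them, CDKN1A, beside 4.42% of all genes, and limma on log2(TPM + 1) called 0, beside 1.35%. The labels do not say what libraries with the same number share. Replicate 1 libraries had 17075833 to 18280556 counts and replicate 2 libraries 25721265 to 27736454.

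CDKN1A, which encodes p21, was at 273 and 221 TPM in UT, 484 and 414 in Ni-E, and 468 and 359 in Ni-W. Both nickel groups lay above both UT libraries, with no overlap. Here and for the genes below, the share of all genes so separated was not taken. In Ni-E the log2 fold change against UT was 0.86 ± 0.15 (SE, n = 2 libraries a group, 1.81-fold) with an edgeR adjusted p of 0.0537, and 0.86 ± 0.09 with an adjusted p of 9.9e-05 with the replicate term. DESeq2 gave an adjusted p of 0.0019, and the adjusted p over all alternatives ranged from 9.9e-05 to 0.454. The difference was 0.87 in replicate 1 and 0.84 in replicate 2.

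After 2 weeks without nickel, the log2 fold change of CDKN1A against UT was 0.69 ± 0.15 (1.61-fold), with an edgeR adjusted p of 0.145, and 0.000636 with the replicate term. The DESeq2 adjusted p was 0.041, and the range over the alternatives was 0.000636 to 0.852. The 2 nickel groups were close to each other, with a log2 difference of -0.17 ± 0.14 in Ni-W against Ni-E (edgeR adjusted p = 1.00, and 0.372 with the replicate term). The Ni-W difference from UT was 0.67 in replicate 1 and 0.71 in replicate 2.

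MDM2 was at 36.6 and 26.6 TPM in UT, 51.3 and 46.3 in Ni-E, and 60.0 and 29.0 in Ni-W. The Ni-E libraries lay above the UT libraries, while 1 Ni-W library lay above both UT values and the other between them. The log2 fold change in Ni-E against UT was 0.64 ± 0.25 (edgeR adjusted p = 0.391), and 0.65 ± 0.14 with the replicate term (adjusted p = 0.00821). For Ni-W against UT it was 0.40 ± 0.25 (edgeR adjusted p = 0.889, and 0.114 with the replicate term), made of 0.58 in replicate 1 and 0.15 in replicate 2. The size of the Ni-W difference thus depended on which of the 2 libraries was read.

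GADD45A, whose product binds PCNA and slows the cell cycle after stress, was at 142 and 175 TPM in UT, 203 and 233 in Ni-E, and 170 and 194 in Ni-W. The order within each group was the same, with replicate 2 above replicate 1. The log2 fold change was 0.43 ± 0.30 in Ni-E against UT (edgeR adjusted p = 0.776, and 0.0125 with the replicate term, at 1.35-fold and so under the fold minimum). Between Ni-W and UT it was 0.15 ± 0.30, past neither threshold in either fit.

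The other CIP/KIP genes did not pass the test in any comparison. CDKN1B (p27) was at 49.3 and 31.7 TPM in UT, 52.0 and 37.2 in Ni-E, and 65.6 and 34.6 in Ni-W, so the replicates of a group differed more than the groups. Its log2 fold change was 0.14 ± 0.26 in Ni-E and 0.23 ± 0.26 in Ni-W, each against UT. CDKN1C (p57), an imprinted gene at 11p15, had 3 to 14 counts a library and did not reach the expression filter.

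The 2 expressed INK4 genes had log2 differences below 0 in Ni-E. CDKN2C (p18) was at 38.7 and 25.8 TPM in UT, 24.3 and 19.9 in Ni-E, and 39.3 and 26.8 in Ni-W. The Ni-E libraries were the lowest, and Ni-W overlapped UT. The log2 fold change was -0.45 ± 0.19 in Ni-E against UT (edgeR adjusted p = 0.44, and 0.0341 with the replicate term) and 0.54 ± 0.19 in Ni-W against Ni-E (edgeR adjusted p = 0.768, and 0.0326 with the replicate term), in each case under 1.5-fold. CDKN2D (p19), with 47 to 168 counts a library, was at 6.56 and 10.4 TPM in UT, 5.11 and 6.83 in Ni-E, and 5.61 and 6.48 in Ni-W. Its log2 fold changes against UT were -0.49 ± 0.43 and -0.53 ± 0.43. In TPM, Ni-E overlapped UT and Ni-W lay just under it, and in CPM (counts scaled to depth) both overlapped UT.

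CDKN2A and CDKN2B each had 0 counts in all 6 RT4 libraries. A count of 0 allows up to 3 counts, which is 0.108 to 0.176 CPM a library, so no nickel effect on these genes could be measured in RT4 cells. RT4 has been described as lacking this locus, and copy number was not measured here.

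**Figure D2:**
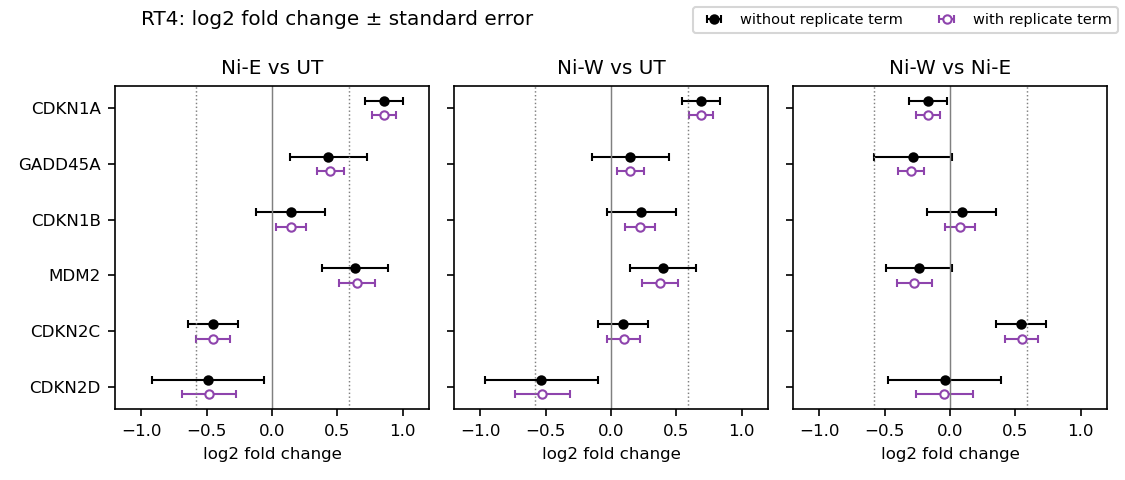
Log2 fold change with its standard error for the 6 tested genes in the 3 RT4 comparisons (n = 2 libraries a group), from the edgeR fit without (filled) and with (open) a term for the replicate number. Dotted lines mark 1.5-fold. CDKN1A lay past the line at 0.86 in Ni-E and 0.69 in Ni-W against UT, and CDKN2C lay inside it at -0.45 in Ni-E.

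In Ni-W against UT, 0 of the 6 tested genes were called (0.6% of all genes were). Of the 6, 1 had an unadjusted edgeR p below 0.05, as did 9.12% of all genes. With the replicate term 1 was called, CDKN1A (8.57% of all genes). DESeq2 also called 1, CDKN1A, beside 2.94% of all genes, and limma 0, beside 0.586%. In Ni-W against Ni-E, 0 of 6 were called without the term, where 0% of all genes were and 808 genes had an unadjusted edgeR p below 0.05, and 0 of 6 with it, where 4.52% of all genes were. DESeq2 and limma called 0 of the 6 genes there, beside 0.947% and 0% of all genes. Of the 6, 1 (CDKN2C) had an unadjusted edgeR p below 0.05, as did 5.57% of all genes.

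The other p53 target genes lay mostly above 0. Of 26 listed targets tested, 24 had a log2 fold change above 0 in Ni-E against UT, with a median of 0.62 beside -0.01 over all genes, and 24 of 26 in Ni-W against UT, with a median of 0.48 beside 0.00. These 2 comparisons share the UT libraries. In Ni-E, 3 targets were called higher without the replicate term and 14 with it, where 1.45% and 7.64% of all genes were called higher, and 0 were called lower in either fit, beside 0.71% and 5% of all genes. In Ni-W, 2 were called higher without the term and 8 with it, beside 0.503% and 5.79% of all genes. DESeq2 called 8 in Ni-E and 5 in Ni-W, beside 4.42% and 2.94% of all genes. With limma 0 were called in each, beside 1.35% and 0.586%. Leaving out any 1 of the Ni-E or UT libraries took the 3 calls in Ni-E to 0, and leaving out any 1 of the Ni-W or UT libraries took the 2 calls in Ni-W to 0, or to 1 without Ni-W replicate 2.

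SPATA18, a mitochondrial quality control gene, had 0.67 and 0.76 TPM in UT, 4.38 and 4.32 in Ni-E, and 6.03 and 3.66 in Ni-W. Its log2 fold change was 2.56 ± 0.27 in Ni-E (edgeR adjusted p = 0.0187) and 2.66 ± 0.27 in Ni-W (adjusted p = 0.0267). PLK2, a stress-induced polo-like kinase, was at 13.95 and 11.38 TPM in UT, 51.8 and 48.7 in Ni-E, and 40.4 and 22.4 in Ni-W. It rose by 1.98 ± 0.22 in Ni-E (edgeR adjusted p = 0.0204), and its Ni-W difference of 1.22 ± 0.21 had an adjusted p of 0.0925 (called with the replicate term). POLH, which encodes a DNA polymerase that copies past ultraviolet damage, rose in both nickel groups, by 1.43 ± 0.19 in Ni-E (adjusted p = 0.03) and 1.498 ± 0.19 in Ni-W (adjusted p = 0.0466). All nickel libraries of SPATA18, PLK2 and POLH lay above their UT libraries. These genes were named because they were called, and the share of all genes so separated was not taken.

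Further targets were called by edgeR in the fit with the replicate term and not in the fit without it. Among the largest by log2 fold change in Ni-E with the term were FAS, a death receptor, at 1.82 ± 0.19, and ZMAT3, an RNA-binding protein, at 1.34 ± 0.14. BBC3 (PUMA), which promotes apoptosis, was at 1.19 ± 0.16, and all 3 were also called in Ni-W. GDF15, a secreted stress cytokine, was at 503 and 620 TPM in UT, 1077 and 1199 in Ni-E, and 517 and 699 in Ni-W. With the replicate term it was called higher in Ni-E than in UT. It was called lower in Ni-W than in Ni-E, where its log2 difference with the term was -0.96, as was PLK2 at -0.78. These were 2 of 26 targets called lower in that comparison, where 1.8% of all genes were. Without the term 0 of 26 were called there, beside 0% of all genes. The 2 genes of the list below 0 in Ni-E were at -0.03 (BTG2, an antiproliferative gene) and -0.17, and both were also below 0 in Ni-W, at -0.25 and -0.14. Neither passed the test in either fit.

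**Figure D3:**
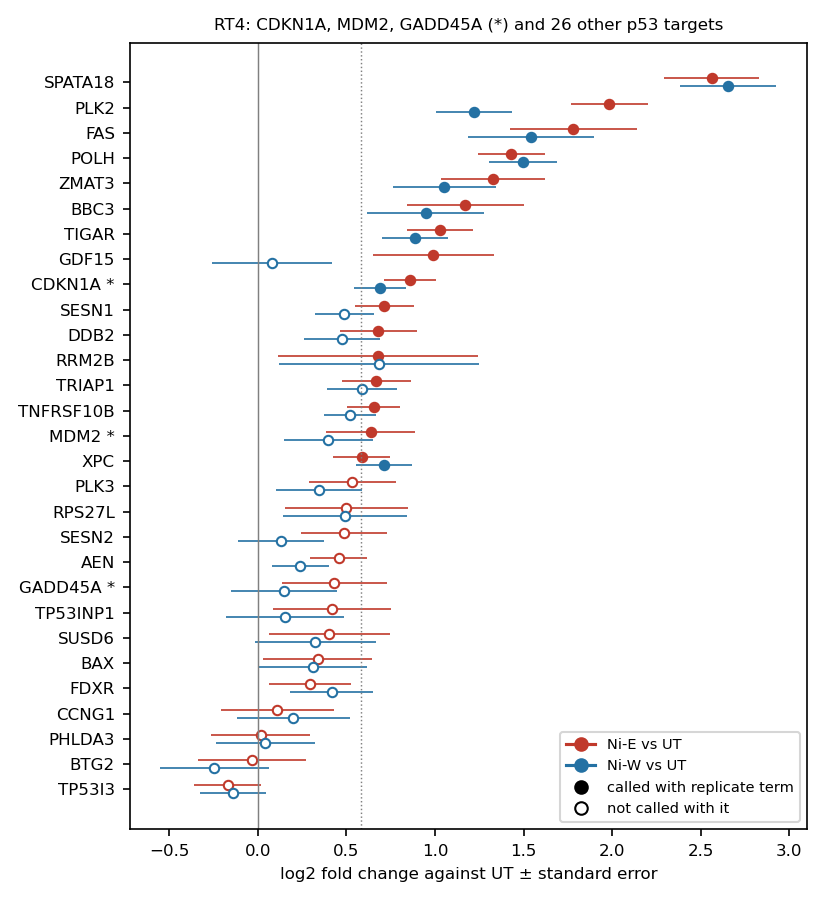
Log2 fold change against UT with its standard error (edgeR fit without a replicate term, n = 2 libraries a group) for CDKN1A, MDM2 and GADD45A (asterisks) and 26 other p53 target genes in Ni-E and Ni-W RT4 cells. Filled points were called with the replicate term, and the dotted line marks 1.5-fold. SPATA18 was highest at 2.56 and 2.66, and GDF15 was at 0.99 in Ni-E and 0.08 in Ni-W.

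Of 10 p53 regulators, edgeR called 0 in each comparison without the replicate term. Of all genes 2.17% were called in Ni-E against UT, 0.6% in Ni-W against UT and 0% in Ni-W against Ni-E. In each comparison with UT 1 had an unadjusted edgeR p below 0.05, HIPK2 each time, beside 12.23% of all genes in Ni-E and 9.12% in Ni-W. DESeq2 called HIPK2 in Ni-E (4.42% of all genes) and 0 in Ni-W (2.94%), and limma 0 (1.35% and 0.586%). With the term HIPK2, a kinase that phosphorylates p53, had log2 fold changes of 1.87 ± 0.21 in Ni-E and 1.26 ± 0.21 in Ni-W. Its level was 0.2 to 0.36 TPM in UT, and it was called higher in both nickel groups. That is 1 of 10 genes, where 7.64% and 5.79% of all genes were called higher with the term.

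Among 18 genes for CDKs, cyclins, RB and E2F proteins, which act below the inhibitors, CDK6 was the gene called without the replicate term, higher in both nickel groups, as were 1.45% of all genes in Ni-E and 0.503% in Ni-W. CDK6 was at 0.09 and 0.09 TPM in UT, 0.98 and 0.84 in Ni-E, and 0.99 and 0.48 in Ni-W. It rose by 3.29 ± 0.36 on the log2 scale in Ni-E (edgeR adjusted p = 0.0203) and by 2.89 ± 0.36 in Ni-W (adjusted p = 0.046), from 10 and 17 counts in the UT libraries. With the term, CCND2 and CCNE2 were also called higher in Ni-E, and CCND1 in Ni-W, while CCND2 and E2F1 were called lower in Ni-W than in Ni-E. These were 3 and 2 of 18 genes called higher against UT, CDK6 included, beside 7.64% and 5.79% of all genes, and 2 of 18 lower, beside 1.8%. CDK4, the other kinase that INK4 proteins bind, had log2 fold changes of 0.06 and -0.13 against UT and was called in neither fit.

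In the GADD45 family, 0 of the 2 other genes were called without the term. The share of all genes called without it was 2.17% in Ni-E and 0.6% in Ni-W against UT, and 0% in Ni-W against Ni-E. With it GADD45G was called higher in Ni-E (1.52) and GADD45B in Ni-W (0.81). GADD45G had an unadjusted edgeR p below 0.05 in Ni-E, as did 12.23% of all genes, and DESeq2 called 0 of the 2. Of all genes, DESeq2 called 4.42% in Ni-E and 2.94% in Ni-W against UT, and 0.947% in Ni-W against Ni-E. Of the 12 regulators of the INK4 and KIP genes, 11 were tested. Without the term 0 were called in any comparison, beside the same edgeR shares of all genes. With the term FOXO3, KLF4, KLF6 and MYC were called higher in Ni-E and KLF4 in Ni-W, and MYC was lower in Ni-W than in Ni-E. Beside these 4 and 1 of 11 regulators, and 1 of 2 GADD45 genes in each, 7.64% of all genes were called higher in Ni-E and 5.79% in Ni-W with the term, and 1.8% lower in Ni-W than in Ni-E. FOXO3 had an unadjusted edgeR p below 0.05 in Ni-E, as did 12.23% of all genes. DESeq2 called 0 of the 11, beside its shares of all genes given above. MYC was at 66.4 and 23.5 TPM in UT, 158 and 65.6 in Ni-E, and 64.3 and 20.9 in Ni-W, with replicate 1 above replicate 2 in each group. Among 6 neighbours of CDKN1C at 11p15, 0 were called without the term, beside the same edgeR shares of all genes. With the term PHLDA2 was lower in both nickel groups (as were 5% of all genes in Ni-E and 2.78% in Ni-W). IGF2 was higher with it in Ni-W, as were 5.79% of all genes. DESeq2 called 0 of these 6, beside the same DESeq2 shares. IGF2 and PHLDA2 had an unadjusted edgeR p below 0.05 in Ni-W against UT, as did 9.12% of all genes.

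Of 11141 genes with at least 5 CPM, those with a pattern over the 6 RT4 libraries most like CDKN1A, by the root mean square difference of mean-centred log2 CPM, were PIK3IP1 (0.0378), LGALS8 (0.0523) and GJB2 (0.0537). PIK3IP1, an inhibitor of PI3 kinase, was at 64.8 and 53.4 TPM in UT, 114 and 102 in Ni-E, and 106 and 85.1 in Ni-W. The 3 genes most like MDM2 were CCDC88A (0.0528), APP (0.0651) and USP31 (0.0661). With 6 libraries these are descriptions of likeness alone.

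H3K4me3, a histone mark of active promoters, was measured in BEAS-2B cells as RPKM (reads per kilobase and depth) in the 4 kb around each gene's start site. With 1 library a condition there is no replicate check, and the 95% Wilson intervals cover counting error only. The depth recovered from the RPKM steps was 28385725 reads in UT, 37493949 in Ni-E and 29933551 in Ni-W, and the median promoter was at 1.568, 1.387 and 1.119 RPKM. In Ni-W 22.9% of the reads fell in listed promoters, against 37.6% in UT and 36.0% in Ni-E, a difference of the whole library that moves with each Ni-W value below and whose part in them was not tested. Values were therefore compared after division by the library median, as a chromatin dynamic score, which is the difference between conditions of the square root of that scaled level.

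CDKN2A, CDKN1B and CDKN2C had the strongest H3K4me3 in untreated BEAS-2B cells, and CDKN1A had little. The UT level was 17.6 RPKM at CDKN2A (95% interval 16.9 to 18.4), above 99.7% of all promoters, 15.7 at CDKN1B, 13.7 at CDKN2C, 10.2 at GADD45A, 7.88 at CDKN2B, 7.49 at MDM2 and 6.52 at CDKN2D. CDKN1A was at 0.775 RPKM (0.629 to 0.955, 88 reads), below the library median. Which start site the window was set on is not given in the sources used here: the outermost RefSeq start of CDKN1A lies 2251 bases from its main (MANE) start, outside a window of 2 kb to each side, and the outermost and main starts of CDKN2A are 20467 bases apart. The outermost start of CDKN2A and that of CDKN2B-AS1, an antisense RNA, are 533 bases apart, so windows on them share reads.

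During nickel exposure no promoter of the set passed 1.5-fold. In Ni-E against UT, 0 of the 7 promoters with at least 1 RPKM were past 1.5-fold of the median-scaled level, where 1.01% of all promoters were higher and 0.595% lower. Those 143 higher and 84 lower promoters became 71 and 225 without median scaling and 91 and 95 with quantile normalization, and 0 of the 7 passed 1.5-fold in either. GADD45A went from 10.2 to 10.6 RPKM, a score of 0.22, and MDM2 from 7.49 to 7.74, a score of 0.18, both past the counting error (SE 0.051). That holds after median scaling. Without it the scores were 0.069 and 0.046, and the 95% intervals of the UT and Ni-E RPKM values overlapped for both genes. CDKN2B went from 7.88 to 5.99 RPKM, a score of -0.16. The median score of all promoters with at least 5 RPKM in the Ni-W library was 0.11, above which GADD45A and MDM2 lay and below which CDKN2B lay.

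In the washed-out population CDKN1B, CDKN2A and CDKN2D had the lowest scores against UT, and the direction of CDKN2B depended on the scaling. CDKN1B was at 15.7 RPKM in UT, 14.6 in Ni-E and 7.08 in Ni-W. CDKN2D was at 6.52, 5.92 and 2.76, and CDKN2A at 17.6, 15.8 and 8.51. The scores in Ni-W against UT were -0.65 for CDKN1B, -0.59 for CDKN2A, -0.47 for CDKN2D, -0.32 for CDKN2C, -0.24 for GADD45A, -0.11 for MDM2 and -0.03 for CDKN1A. The counting SE was 0.0572, so MDM2 and CDKN1A lay within the counting error. Marked promoters were lower in general: those with at least 5 RPKM in the Ni-E library had a median score of -0.26, with 7093 of 8470 below 0. CDKN1B lay above 2.02% of these promoters, CDKN2A above 3.29% and CDKN2D above 12.2%. CDKN2C lay above 38.8%, GADD45A above 53.2% and MDM2 above 73.2%. The score is a difference of square roots, so the same ratio gives a larger score at a stronger promoter. By median-scaled ratio to UT, CDKN2D (0.593) was lower than CDKN1B (0.633) and CDKN2A (0.677). The median ratio of the promoters with at least 5 RPKM in the Ni-E library was 0.782. Of the 7 promoters with at least 1 RPKM, 2 were past 1.5-fold lower, CDKN1B (0.633 of the UT level after median scaling) and CDKN2D (0.593), and 0 were higher, where 18.4% of all promoters were lower and 4.39% higher. CDKN2A, at 0.677, did not reach that limit. With quantile normalization CDKN1B and CDKN2D did not reach it either, at log2 ratios of -0.44 and -0.45, and 761 of all promoters were lower and 1135 higher, beside 2596 and 620 with median scaling. MDM2 turned to a score of 0.10 there. In Ni-W against Ni-E, 3 of 7 were lower, CDKN1B, CDKN2A and CDKN2D, where 30.3% of all promoters were lower and 4.07% higher. With quantile normalization 0 of the 7 were lower there, with the 3 at log2 ratios of -0.40, -0.27 and -0.37, CDKN2B was past 1.5-fold higher at 0.80, and 858 of all promoters were lower and 1130 higher, beside 4287 and 575. Without scaling 6 of the 7, all but CDKN2B, were past 1.5-fold lower in Ni-W than in UT and than in Ni-E. Of all 14127 promoters, 10035 and 9009 were so. CDKN2B was then at 0.823 of its UT level and 1.08 of its Ni-E level.

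After median scaling, CDKN2B was the member with a score above 0 in Ni-W against UT. It was at 7.88 RPKM in UT (7.38 to 8.42), 5.99 in Ni-E (5.61 to 6.39) and 6.49 in Ni-W (6.05 to 6.96). Its score was 0.17 in Ni-W against UT and 0.33 in Ni-W against Ni-E, above 93.0% and 98.4% of the promoters that had at least 5 RPKM in the library outside the comparison. Without median scaling it was -0.26 against UT, so that its direction against UT depends on the scaling. The study gives CDKN2B as an example of the genes whose RNA in BEAS-2B cells fell during exposure and stayed lower after washout. That RNA was not analysed here. The MDM2 promoter was at 7.49, 7.74 and 4.84 RPKM, and GADD45A at 10.2, 10.6 and 5.95.

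**Figure D4:**
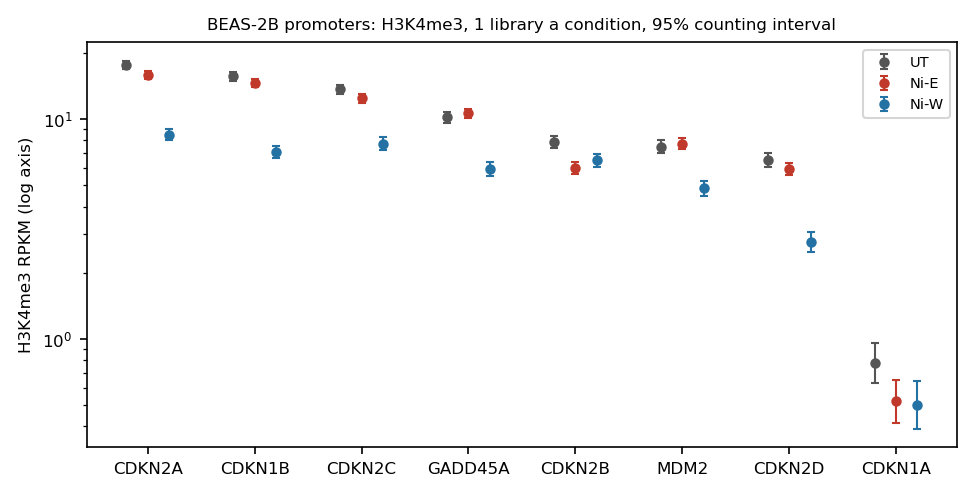
H3K4me3 level (RPKM, log axis) at the promoters of 8 CDK inhibitor and p53-axis genes in UT, Ni-E and Ni-W BEAS-2B cells, 1 library a condition, with 95% Wilson counting intervals. CDKN1B was at 15.7 in UT and 7.08 in Ni-W, CDKN2D at 6.52 and 2.76, CDKN2B at 7.88 and 6.49, and CDKN1A lay under 1 RPKM in each library.

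The CDKN2A and CDKN2B promoters are shown because the scores of these INK4 neighbours in Ni-W against UT had opposite signs after median scaling. Each is the 250 bases before a start site on the minus strand of GRCh38.p14, CDKN2A before its outermost start (chr9:21995325-21995574) and CDKN2B (chr9:22009306-22009555), with GC boxes (GGGCGG or CCGCCC) in capitals.
CDKN2A: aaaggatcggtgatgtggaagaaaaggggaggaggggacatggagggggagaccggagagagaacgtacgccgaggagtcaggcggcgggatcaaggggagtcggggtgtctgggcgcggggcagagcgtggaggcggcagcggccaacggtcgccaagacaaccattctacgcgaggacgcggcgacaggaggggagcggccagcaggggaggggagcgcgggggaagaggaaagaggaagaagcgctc
CDKN2B: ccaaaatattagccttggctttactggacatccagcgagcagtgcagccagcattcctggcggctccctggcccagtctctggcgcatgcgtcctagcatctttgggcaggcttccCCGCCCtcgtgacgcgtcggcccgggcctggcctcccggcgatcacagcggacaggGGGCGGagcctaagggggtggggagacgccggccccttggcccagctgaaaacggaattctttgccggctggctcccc
The 300-base CDKN2B promoter held 2 GC boxes, that of CDKN2A at this start held 0, and that at the main CDKN2A start held 2. The CpG dinucleotides numbered 25, 28 and 26.

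For the genes around the INK4 locus, the data used here were RNA in RT4 cells and promoter H3K4me3 in BEAS-2B cells. No quantity was thus compared between the lines. The study also measured RNA in BEAS-2B cells, which was not used here. In RT4 cells MTAP, IFNE, CDKN2B-AS1, DMRTA1 and ELAVL2 had 0 counts in all 6 libraries, as did CDKN2A and CDKN2B, while MLLT3, FOCAD, HACD4 and KLHL9, further towards the chromosome end, had reads. The 4 genes with reads were called neither by edgeR, with or without the replicate term, nor by DESeq2 or limma in any comparison. None had an unadjusted edgeR p below 0.05, beside 12.23% of all genes in Ni-E against UT, 9.12% in Ni-W against UT and 5.57% in Ni-W against Ni-E. In BEAS-2B cells MTAP, a methionine salvage enzyme next to CDKN2A, was at 9.20 RPKM in UT, 8.76 in Ni-E and 3.6 in Ni-W, and MLLT3 at 15.0, 15.4 and 5.65. Of the 6 neighbours with at least 1 RPKM in every library, 4 were past 1.5-fold lower in Ni-W against UT after median scaling (MLLT3, MTAP, CDKN2B-AS1 and DMRTA1). The share over all promoters was not taken under that filter. With at least 1 RPKM in any library, 6 of 8 were lower, FOCAD and HACD4 included, where 18.4% of all promoters were lower and 4.39% higher. ELAVL2, at 2.09 RPKM in UT and 2.49 in Ni-W, was past 1.5-fold higher after it and at 1.19-fold without it. With quantile normalization MLLT3 alone of the 4 was past 1.5-fold lower, as were FOCAD and HACD4, beside 761 of all 14127 promoters.

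**Figure D5:**
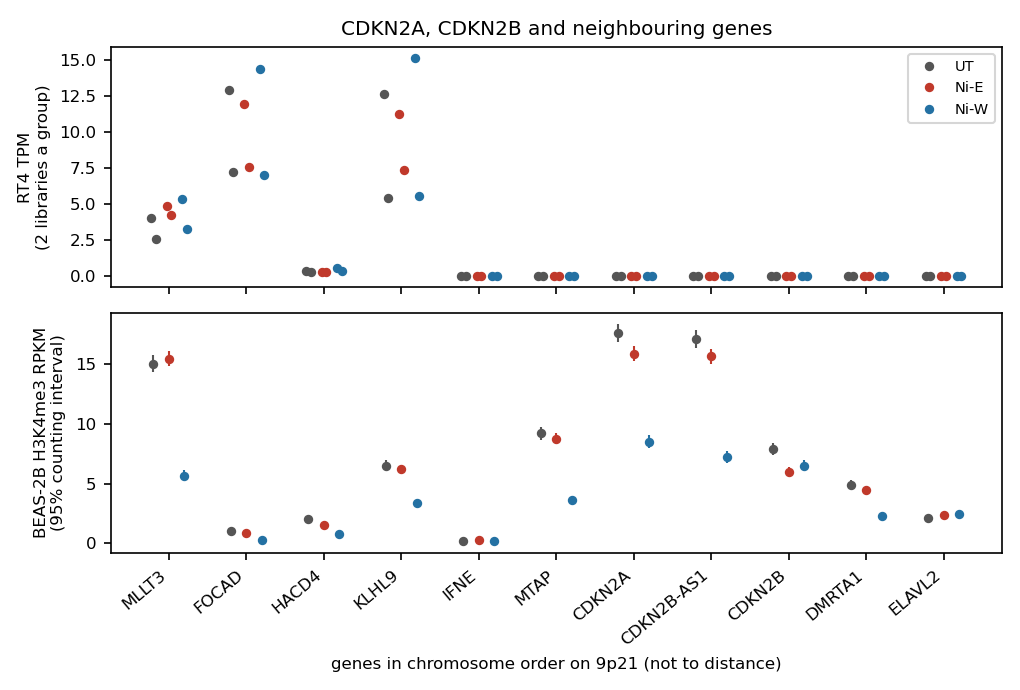
Genes around CDKN2A and CDKN2B in chromosome order (not to distance), with RT4 RNA level (TPM, 2 libraries a group, upper panel) and BEAS-2B promoter H3K4me3 (RPKM with 95% counting interval, 1 library a condition, lower panel). From IFNE to ELAVL2 all RT4 values were 0, while CDKN2A in BEAS-2B was at 17.6, 15.8 and 8.51 RPKM.

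In 4 other lists 22.2% to 28% of the promoters with at least 1 RPKM were past 1.5-fold lower in Ni-W against UT after median scaling, beside 18.4% of all promoters. With quantile normalization PCNA alone of these genes was. These were 7 of 25 other p53 targets, among them SESN2 and DDB2, and 4 of 18 CDK, cyclin, RB and E2F genes, among them PCNA (11.5 RPKM in UT and 4.26 in Ni-W). Of 9 p53 regulators 2 were lower, USP7 and CHEK2, and of 12 regulators of the INK4 and KIP genes 3 were lower. GADD45G, at 3.10 RPKM in UT and 3.87 in Ni-W, was past 1.5-fold higher after median scaling and at 1.25-fold without it. In Ni-E against UT, CCND1, the D-type cyclin partner of CDK4 and CDK6, was at 7.40 RPKM in UT and 10.2 in Ni-E, which was 1.55-fold after median scaling and 1.38-fold, under the limit, without it. Of the neighbours of CDKN1C, 1 reached 1 RPKM, KCNQ1OT1, which after median scaling was past 1.5-fold lower in Ni-W against UT.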

How the data were processed

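RNA-Seq was analysed in RT4 cells (6 libraries) and H3K4me3 ChIP-Seq in BEAS-2B cells (3 libraries). The authors deposited RSEM gene tables with expected counts, TPM and FPKM (FPKM and gene lengths entered no test), aligned with STAR. The methods give hg19 for RNA-Seq and the submitters' processing notes name hg38, so the build behind these tables is uncertain. The authors deposited 1 RPKM value per promoter from reads aligned with BWA to hg38, 2 kb to each side of the start site, per kilobase and per depth of non-redundant reads. The 2 deposited input libraries were not used here.

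Expected counts were rounded to whole numbers, which 97.9% to 98.0% of values already were, and scaled by TMM. They were tested with edgeR 4.0.16 (R 4.3.3), quasi-likelihood F-test after filterByExpr, over all 6 libraries without a replicate term; a gene was called at 1.5-fold or more and an adjusted p below 0.05. Alternatives were a replicate block, DESeq2 1.42.0, limma 3.58.1 on log2(TPM + 1) with a mean of at least 1 TPM, RLE factors, other filters, the 2 groups alone, and each library left out. The replicate number came from the titles, where 1 library of each group carries a duplicate suffix. Deviations from the group mean correlated between same-numbered libraries at 0.66 (UT and Ni-E), 0.76 (UT and Ni-W) and 0.69 (Ni-E and Ni-W) over 14502 genes, so blocked values stand beside the results they change. The 2 libraries of a group are described as biological replicates in the methods.

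For RPKM, whole reads were recovered from the step of each library (100% of values whole within 0.0005 RPKM), giving Wilson intervals. Promoters below 1 RPKM in all 3 libraries were left out of counts past 1.5-fold. Sequences and start sites came from RefSeq (GRCh38.p14), in which GADD45A and CDKN1C had no promoter entry, and from GENCODE 44. The edgeR fit without the replicate term, and the recovery of reads and score direction for RPKM, were tried on simulated data. The simulated counts held no deviation shared by same-numbered libraries, and the fit with the term was not tried.

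Members and lists were chosen with earlier results of these data known. Named genes were the 9 members, at most 6 called genes of each list for a comparison (in either fit), at most 4 for H3K4me3, and the 3 nearest patterns; the 9p21 genes, the urothelial markers, BTG2, CDK4 and the levels of MYC were named after their values were seen. For the p53 regulators 1 gene of the list is not reported here.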

Additional observations from a re-analysis of the deposited data

How the results depend on the processing

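No result here rests on more than 2 libraries a group in RT4 or 1 in BEAS-2B, and the cause of the differences below was not tested. The number of genes called in Ni-E against UT (314) was 1833 with the replicate block, 730 with DESeq2, 177 with limma and 209 with at least 10 counts in every library, and 0 to 44 with each library left out (0 without either Ni-E library). In Ni-W against UT (87) it was 1243 with the block, 442 with DESeq2, 193 without a filter, 54 with at least 10 counts and 0 with only the 2 groups compared, and 0 to 38 with each library left out (0 without UT replicate 2). In Ni-W against Ni-E (0, and 808 genes with an unadjusted edgeR p below 0.05) it was 655 with the block, 139 with DESeq2 and 14 without a filter, and 0 to 0 with each library left out. The number of members called in Ni-E against UT (0) was 2 with the block and 1 with DESeq2, in Ni-W against UT (0) it was 1 with the block and 1 with DESeq2, and leaving out libraries gave 0. The block changed no other member's call.

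The log2 fold change of CDKN1A kept its direction in all 3 comparisons, at 0.82 to 0.89 in Ni-E and 0.67 to 0.71 in Ni-W against UT with each library left out. Smaller differences changed sign when a library was left out. For Ni-E against UT, CDKN1B then ranged from -0.033 to 0.34 and CDKN2D from -0.86 to 0.015. For Ni-W against UT, CDKN1B ranged from -0.055 to 0.47, CDKN2C from -0.026 to 0.21 and GADD45A from -0.17 to 0.46. For Ni-W against Ni-E, CDKN1B ranged from -0.19 to 0.33, CDKN2D from -0.43 to 0.30 (0.024 with limma) and MDM2 from -0.60 to 0.055. MDM2 took its value above 0 without Ni-W replicate 2.

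For BEAS-2B, the number of the 8 members with a score above 0 in Ni-E against UT (6) was 2 without median scaling, with quantile normalization and with log2 ratios of RPKM + 1. Between Ni-W and UT (1) it was 0 without scaling, 2 with quantile normalization and 0 with log2 ratios, with CDKN2B at -0.26 and -0.25 in the first and last. In Ni-W against Ni-E (2) it was 1 without scaling and 1 with log2 ratios, and MDM2 turned to 0.022 with quantile normalization. Promoters past 1.5-fold in Ni-E against UT (227) numbered 3645 without a filter. For Ni-W against UT (3216) they numbered 10296 without median scaling (10035 of them lower), 1896 with quantile normalization (761 lower) and 8573 without a filter (3668 lower). In Ni-W against Ni-E (4862) they numbered 9325, 1988 and 9739. The order of the members by TPM changed for 3 of 9 genes in CPM, which is not per length. Added after the data were seen, the number of other p53 targets called ranged from 0 to 14 in Ni-E and 0 to 8 in Ni-W over all alternatives. The counts of listed BEAS-2B promoters under each scaling were also added then.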

Other observations

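The mean transcript length that RSEM assigned to a gene, which shifts when isoforms of different length change share, was nearly fixed for CDKN1A, at 2121.79 and 2120.44 bases in UT, 2122.77 and 2124.31 in Ni-E, and 2123.0 and 2120.08 in Ni-W. MDM2 ranged from 7669.29 to 7947.04 bases, with all 3 groups overlapping. CDKN2C, which has start sites spread over 9500 bases in RefSeq, was at 1647.53 and 1725.27 bases in UT, 1829.25 and 1729.46 in Ni-E, and 1756.68 and 1855.74 in Ni-W, so that both UT values lay below the 4 nickel values, by 4.19 bases at the closest. These lengths were not tested, and the share of all genes with lengths so separated was not taken.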
